A study of Homo sapiens with 5 samples.

Results

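The 6 long noncoding RNAs MALAT1, NEAT1, KCNQ1OT1, TUG1, NORAD and H19 were read in 5 RNA sequencing libraries of MCF10A, an established line of non-tumorigenic human mammary epithelial cells. They were chosen by name, with earlier results of these data known, and each matched 1 of the 56632 gene identifiers in the tables. Of the 6, 5 were among the 11764 genes analysed, which had a mean FPKM (fragments scaled to transcript length and library size) of at least 1 over the 5 libraries. KCNQ1OT1 was not, since its FPKM was at most 0.03 in every library, and it is described by its expected counts, the fractional read counts that RSEM estimates. RNA immunoprecipitation (RIP) recovers the RNA that comes down with a protein from a cell lysate, and RIPseq compares it by sequencing with the input RNA of the same lysate. The libraries were 1 input and 1 FLAG-CBFB RIP from MCF10A cells that stably expressed FLAG-tagged CBFB, and 1 parental input and 2 hnRNPK RIP repeats from parental MCF10A cells, all at low passage and without treatment. No mock immunoprecipitation was analysed here, and whether the FLAG-CBFB line came from a single clone was not given in the labels.

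MALAT1 and NEAT1 are neighbouring genes whose RNAs stay in the nucleus. MALAT1 gathers in nuclear speckles, where splicing factors are stored, and NEAT1 is the scaffold of paraspeckles, bodies that only its long isoform can build. KCNQ1OT1 is an imprinted nuclear antisense RNA that silences the genes around it. NORAD is mostly cytoplasmic and binds Pumilio proteins, which repress mRNAs. H19, the imprinted RNA next to IGF2, hosts a microRNA and is largely cytoplasmic. TUG1 is found in both compartments. hnRNPK is a nuclear and cytoplasmic RNA-binding protein that prefers C-rich RNA, is a component of paraspeckles and favours production of long NEAT1. CBFB is the partner of the RUNX transcription factors.

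Positions are those of GENCODE 29 on GRCh38, whereas the submitters' processing notes name hg19 as the build of the tables. On GRCh38, MALAT1 is at chr11:65497688-65506516 and NEAT1 at chr11:65422774-65445540, both on the plus strand. KCNQ1OT1 lies on the minus strand at chr11:2608328-2699994, within KCNQ1, which is on the plus strand. H19 is at chr11:1995176-2001470 on the minus strand. TUG1 is at chr22:30969245-30979395 on the plus strand, and NORAD at chr20:36045622-36050960 on the minus strand. KCNQ1 was the only overlapping GENCODE gene that the tables also listed. It had at most 13 expected counts in any library. The sources used here do not say whether counting used strand. If it did not, reads over the bases that KCNQ1 and KCNQ1OT1 share cannot be told apart.

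Because hnRNPK prefers runs of C, the 30-base window with the most C in the longest GENCODE 29 transcript is shown for each RNA, 5′ to 3′, with runs of at least 3 C in capitals. Where several windows tied, the first is given.
MALAT1: ctggggCCCCgcaactggcctctcctgCCC
NEAT1: CCCacaccaCCCgcctCCCCtgccgcctcc
KCNQ1OT1: tgCCCCCCgCCCaaCCCCgCCCCgaCCCCC
TUG1: CCCggccgccgcggcgcgcgCCCggtggcc
NORAD: CCCgctcctccagggCCCtccaggCCCtcc
H19: gtCCCttCCCtCCCCaggcctcgcttCCCC
The windows start at base 9 of 8708 in MALAT1, base 11052 of 22743 in NEAT1, base 32391 of 91667 in KCNQ1OT1, base 4 of 5017 in TUG1, base 43 of 5339 in NORAD and base 481 of 2348 in H19, counted from the first base of each transcript. The richest window of KCNQ1OT1 held 22 C and that of MALAT1 held 15. A longer transcript offers more windows, so these maxima cannot be compared between RNAs of unlike length.

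Over whole transcripts, runs of at least 4 C, read on the transcript strand, were not denser in these RNAs than in other genes, with H19 the exception. MALAT1 had 17 such runs (1.95 per kb), NEAT1 had 73 (3.21 per kb), KCNQ1OT1 had 312 (3.40 per kb), TUG1 had 9 (1.79 per kb), NORAD had 11 (2.06 per kb) and H19 had 14 (5.96 per kb). The median over 11538 analysed genes with a listed transcript was 3.42 per kb, and over the 925 of them with an hnRNPK enrichment above 2 it was 7.80 per kb. A longer C-rich motif, ACCTCCC or GCCTCCC, occurred 22 times in KCNQ1OT1, 5 times in NEAT1 and 1 time each in MALAT1 and H19. Per kb this was 0.24 in KCNQ1OT1, 0.22 in NEAT1, 0.11 in MALAT1 and 0.43 in H19, and TUG1 and NORAD held none. The median was 0.22 per kb over the 11538 genes and 0.40 over the 925 with an hnRNPK enrichment above 2. Of 4236 analysed transcripts between 4 and 10 kb, 72.9% held it and 99.8% held a run of 4 C. These matches are descriptions of letters, not of binding sites.

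NORAD was rich in the motif TGTANATA, which Pumilio proteins recognise. It occurred 15 times in NORAD (2.81 per kb), 6 times in NEAT1, 9 times in KCNQ1OT1, 2 times in TUG1 and in neither MALAT1 nor H19, and 48.9% of the analysed transcripts between 4 and 10 kb held at least 1. The first 3 in NORAD are shown, with the motif in capitals, because they set it apart in sequence from the others.
NORAD base 750: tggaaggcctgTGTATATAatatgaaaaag
NORAD base 1129: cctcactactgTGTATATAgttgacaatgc
NORAD base 1230: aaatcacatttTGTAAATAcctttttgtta

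The libraries held 69786576 to 106855647 expected counts, and each of the 5 analysed RNAs had at least 86 of them in every library. Mitochondrial genes took 4.27% and 11.2% of the counts in the FLAG-CBFB cell input and the parental input, against 62.2% after CBFB RIP, 84.5% in hnRNPK RIP repeat 1 and 86.6% in repeat 2. The mean log2 ratio of a RIP to its input over analysed genes was therefore -1.34 for CBFB and -2.61 and -2.68 for the hnRNPK repeats, and this mean was subtracted. Enrichment below is log2(FPKM + 1) in the RIP minus that in its own input, relative to the average analysed gene, and was called above 2, that is 4-fold. Epithelial markers summed to 507 to 3591 FPKM per library. Markers of other cell types summed to 0.31 to 2.75 FPKM, with CDH5 and HBB at 0 counts in all 5. COL1A1 and DCN had counts in every library, 98 to 506 and 6 to 99. A RIP of lysed cells cannot tell fewer cells that hold an RNA from less RNA per cell.

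NORAD was the most abundant of the 6 per length in the cells expressing FLAG-CBFB, and NEAT1 in the parental cells. In the FLAG-CBFB cell input the FPKM was 94.1 for NORAD, 46.2 for NEAT1, 39.9 for TUG1, 29.8 for MALAT1 and 8.75 for H19. In the parental input it was 84.8 for NEAT1, 34.5 for TUG1, 32.2 for NORAD, 15.9 for H19 and 15.0 for MALAT1. With 1 library of each, the order within an input has no spread to be set against. Among the 11973 long noncoding RNA genes of GENCODE 29 in the tables, NORAD ranked 9 by FPKM in the FLAG-CBFB cell input and 33 in the parental input, NEAT1 ranked 17 and 14, TUG1 18 and 31, MALAT1 25 and 77, and H19 87 and 73. KCNQ1OT1 ranked 2841 and 3224 by FPKM, because its 91667 bases divide few reads, and 266 and 526 by counts. By these values it is not an abundant RNA in MCF10A.

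**Figure D1:**
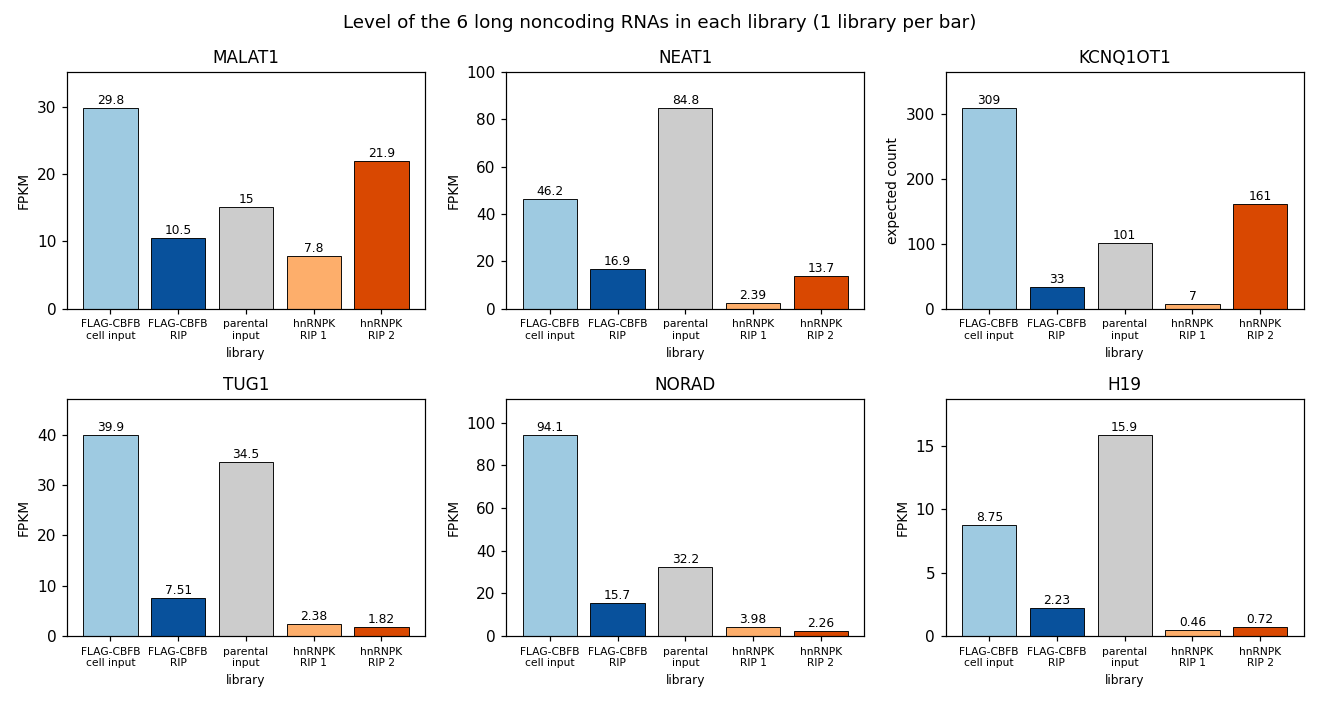
Level of each long noncoding RNA by library, as FPKM for the 5 analysed RNAs and in expected counts for KCNQ1OT1, with 1 bar per library and no error because each library is a single sample. MALAT1, NEAT1 and KCNQ1OT1 stood higher in hnRNPK RIP repeat 2 than in repeat 1, as did H19, at 0.46 and then 0.72 FPKM. NORAD fell from 3.98 to 2.26 FPKM and TUG1 from 2.38 to 1.82.

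The inputs themselves differed for these RNAs. NORAD and MALAT1 were higher in the FLAG-CBFB cell input than in the parental input, by 1.55 and 0.97 on the centred log2(FPKM + 1) scale, and TUG1 differed by 0.23. NEAT1 and H19 were lower, at -0.83 and -0.76. NORAD alone was above a difference of 1, as were 553 of the 11764 analysed genes (4.70%), and no member was below -1. Of all analysed genes, 1126 (9.57%) lay beyond 1 in either direction. Each input is 1 library, so this difference has no test, and it is the reason each RIP was set against its own input.

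CBFB RIP enriched none of the 5 analysed RNAs. MALAT1, the speckle RNA, had an FPKM of 29.8 in the input and 10.5 in the RIP, an enrichment of -0.09. NEAT1 went from 46.2 to 16.9, an enrichment of -0.05. H19 went from 8.75 to 2.23, at -0.25. These 3 lay close to the average gene, which itself fell by 1.34 before centring. TUG1 went from 39.9 to 7.51 and NORAD from 94.1 to 15.7, enrichments of -0.92 and -1.17, and NORAD was below the fifth percentile of all analysed genes, -0.94. NORAD's direction rested on the choice of input, as its value was 0.37 against the parental input, which held less of it. RUNX1, the mRNA that the study describes as bound, had 2.13, and GAPDH, its unbound control, -0.18. Above 2 were 514 of 11764 analysed genes (4.37%) and 0 of these 5 RNAs, and with 1 library per arm no test was possible. The input held 309 expected counts of KCNQ1OT1 and the RIP held 33, or 3.03 and 0.960 CPM (counts scaled to library size) among non-mitochondrial counts, a centred log2 difference of -1.40 on that count scale.

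hnRNPK RIP recovered MALAT1 above the average gene, and the other 4 analysed RNAs did not reach the call of 2. The parental input held MALAT1 at 15.0 FPKM, repeat 1 at 7.80 and repeat 2 at 21.9, enrichments of 1.74 and 3.19 with a mean of 2.47 ± 1.02 (SD, n = 2). Both repeats were above the average gene, and repeat 1 alone was below the call of 2. This direction was relative to the average gene, since the mean was -0.18 without centring and -0.97 when libraries were scaled to the same arithmetic mean FPKM. The call also ended at 0.43 when all genes in the tables set the average and at 1.495 against the input of the other cell line. A mean above 2 was reached by 965 of 11764 analysed genes (8.20%), and 860 (7.31%) were above 2 in both repeats, which MALAT1 was not. The SD covers the RIP repeats only, since there was 1 parental input, and the labels do not say whether the repeats came from separate cultures, so it may be technical.

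NEAT1, the paraspeckle scaffold, had an FPKM of 84.8 in the input and 2.39 and 13.7 in the RIPs. Its enrichments were -2.05 and 0.13, a mean of -0.96 ± 1.54 (SD, n = 2), so that the repeats lay on opposite sides of the average gene. TUG1 had 34.5 FPKM in the input and 2.38 and 1.82 in the RIPs, with enrichments of -0.78 and -0.98, a mean of -0.88 ± 0.14. NORAD had 32.2 and then 3.98 and 2.26, with enrichments of -0.13 and -0.67, a mean of -0.40 ± 0.38. H19 had 15.9 and then 0.46 and 0.72, with enrichments of -0.92 and -0.61, a mean of -0.77 ± 0.22. TUG1 and H19 were below the average gene in both repeats. So was NORAD on this scale, but its mean turned to 0.06 with a pseudocount of 0.1 or genes of mean FPKM of at least 5, 0.12 without mitochondrial genes and 0.19 on CPM with TMM factors. For comparison, RUNX1 had 3.09 ± 0.28 and GAPDH -2.69 ± 0.04.

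**Figure D2:**
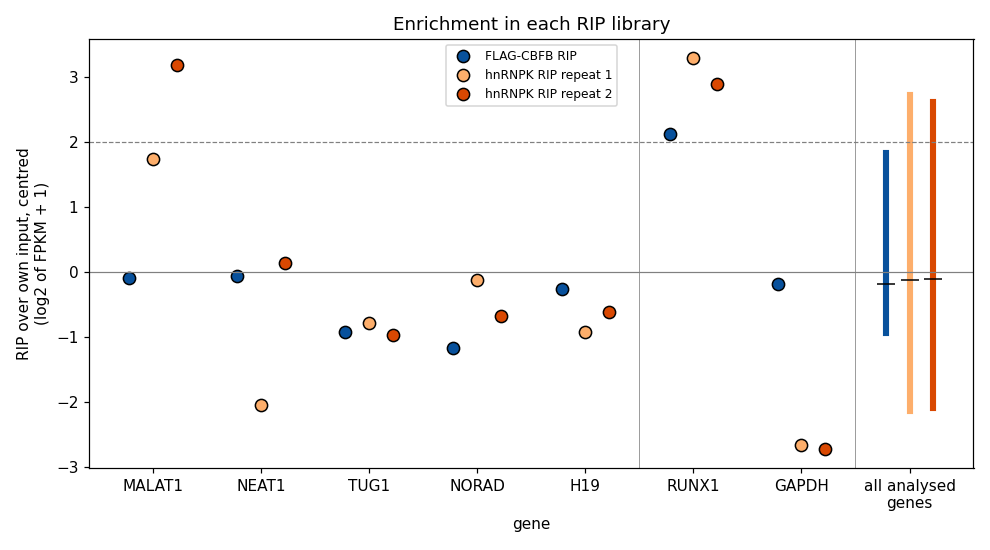
Enrichment of the 5 analysed long noncoding RNAs, RUNX1 and GAPDH in each RIP, as centred log2(FPKM + 1) of the RIP minus its own input, 1 point per RIP library. Vertical bars at the right span the 5th to 95th percentile of all analysed genes with the median as a dash, and the dashed line is the call at 2. MALAT1 in hnRNPK repeat 2, at 3.19, lay above the line, and its CBFB value was -0.09.

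Counts rather than FPKM gave a different sign for the means of NEAT1 and NORAD. Among non-mitochondrial counts, NEAT1 took 299.9 CPM in the parental input, 141 in repeat 1 and 677 in repeat 2, and its centred log2 enrichment on that scale was -0.11 and 2.09, with a mean of 0.99 ± 1.56 (SD, n = 2). MALAT1 took 144, 288 and 832 CPM, with a mean of 2.71 ± 1.05. On the same count scale the means were -0.55 for TUG1, 0.14 for NORAD and -0.53 for H19, beside a median of -0.51 over all analysed genes. The effective length by which NEAT1 counts are divided in FPKM was longer in the RIPs than in the input, by 1.55 and 1.08 on the log2 scale. NORAD also changed sign, from a mean of -0.40 to 0.14, with a fixed length of 5339 nt, and what made the scales differ was not tested.

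The expected counts of the hnRNPK RIPs were compared with those of the parental input by the quasi-likelihood test of edgeR, with Benjamini-Hochberg adjustment over all 16639 genes tested. The test had 1 residual degree of freedom, from the 2 RIP repeats. MALAT1 was higher by a log2 fold change of 3.11 (SE 0.39, edgeR adjusted p = 3.8e-14), with the direction in 2 of 2 repeats. KCNQ1OT1 was called higher at 3.20 (SE 0.58, edgeR adjusted p = 3.5e-07), and NEAT1 at 1.60 (SE 0.36, edgeR adjusted p = 5.7e-05). The calls of KCNQ1OT1 and NEAT1 rested on repeat 2, as repeat 1 alone gave centred log2 values of -0.83 and -0.11 on the count scale. Leaving mitochondrial genes out of the edgeR test gave log2 fold changes of 3.12 for MALAT1, 3.21 for KCNQ1OT1 and 1.61 for NEAT1. The edgeR Benjamini-Hochberg adjusted p-values were then 1.4e-07, 0.0013 and 0.0045, in the same order. In DESeq2, whose standard errors were 2.63 for KCNQ1OT1 and 1.61 for NEAT1, the Benjamini-Hochberg adjusted p-values were 0.40 and 0.52, whereas MALAT1 was called with 8.4e-08. NORAD, H19 and TUG1 did not pass the edgeR test, with log2 fold changes of 0.39, -0.28 and -0.34 and Benjamini-Hochberg adjusted p-values of 0.41, 0.65 and 0.48. Over all genes, 21.9% were called higher (3648) and 15.8% lower (2623), so that 3 of 6 members higher and 0 of 6 lower stood beside a broad background of calls.

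The parental input held 101 expected counts of KCNQ1OT1, with 7 in hnRNPK RIP repeat 1 and 161 in repeat 2. As shares of all counts these were 1.45 CPM (95% Wilson interval 1.19 to 1.76), 0.0679 (0.0329 to 0.140) and 1.78 (1.52 to 2.08). Repeat 1 was therefore below both others by more than counting error, and intervals of this kind cover counting error only. Over non-mitochondrial counts the values were 1.63, 0.439 and 13.3 CPM.

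The hnRNPK repeats differed most for the 3 members that are retained in the nucleus. On the FPKM scale, where KCNQ1OT1 was not analysed, repeat 2 exceeded repeat 1 by 2.18 for NEAT1 and 1.45 for MALAT1. It exceeded it by 0.31 for H19, and the differences were -0.19 for TUG1 and -0.54 for NORAD. Over the 11764 analysed genes the SD of this difference was 0.35, and 103 of them (0.876%) exceeded 1. NEAT1 ranked 13 from the top and MALAT1 44, the 99.9th and 99.6th percentiles, whereas NORAD was at the 4.17th. On the scale of non-mitochondrial counts, where 535 genes (4.55%) exceeded 1, the differences were 4.77 for KCNQ1OT1, 2.21 for NEAT1 and 1.48 for MALAT1, against 0.67 for H19, -0.10 for TUG1 and -0.66 for NORAD. All 3 nuclear-retained members exceeded 1 on the count scale and none of the other 3 did. Other long noncoding RNAs did not divide by compartment in this way. On the FPKM scale the nuclear PVT1 and JPX differed by -0.17 and -0.08. Of the 4 cytoplasmic ones analysed, DANCR and CYTOR differed by 0.76 and 0.39, and OIP5-AS1 and TINCR by -0.09 and -0.22. None of these exceeded 1 on either scale, and DANCR and OIP5-AS1 are named after their values were seen. RNAs of lower FPKM also enter on the count scale, where the nuclear MIAT differed by 3.15 on about 1 and 10 counts. The cytoplasmic UCA1 differed by 1.68 there, on 27 and 69 counts. No other listed RNA exceeded 1 on that scale, and MIAT and UCA1 are likewise named after their values were seen. An mRNA, that of the tankyrase-binding protein TNKS1BP1, also had 5.08 FPKM in repeat 1 and 21.5 in repeat 2. It was picked as the gene nearest to NEAT1 in pattern over these same libraries, so this likeness was built into the choice. Members are not replicates of a compartment, and each repeat is 1 library, so this pattern has no test.

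**Figure D3:**
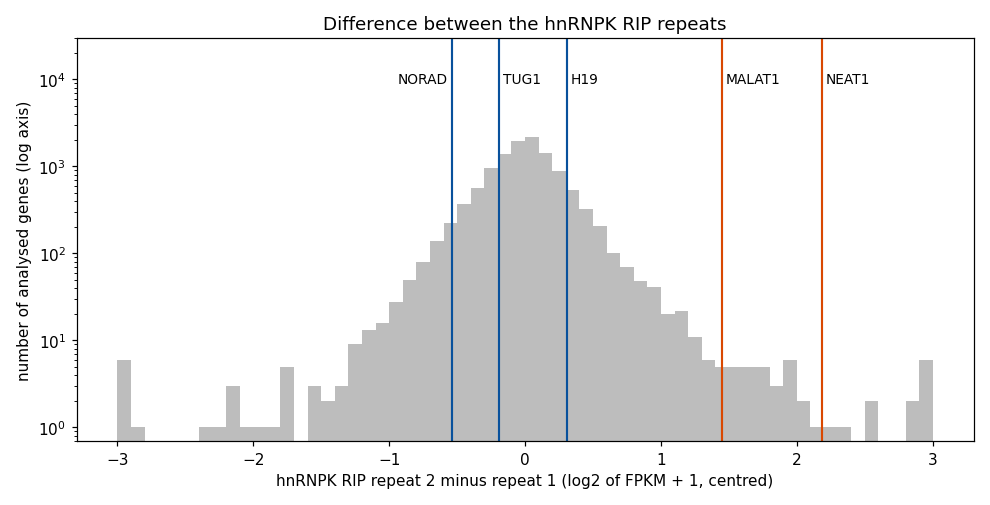
Histogram of hnRNPK RIP repeat 2 minus repeat 1 over the 11764 analysed genes, in centred log2(FPKM + 1), with the number of genes on a log axis and the end bins holding the 3 genes below -3 and the 6 above 3 as well. Vertical lines mark the 5 analysed long noncoding RNAs, with MALAT1 at 1.45 and NEAT1 at 2.18 in the upper tail.

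Other classes were also represented among the 103 genes above 1. They included 26 of 476 analysed long noncoding RNA genes (5.46%), 7 of 24 snRNA genes (29.2%) and 5 of 21 snoRNA genes (23.8%), but 44 of 10549 protein-coding genes (0.417%). Many snRNA and snoRNA genes have near-identical copies, and their counts are uncertain. Mitochondrial counts were 84.5% in repeat 1 and 86.6% in repeat 2, and its part in the difference was not tested.

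Nuclear-retained minus cytoplasmic members differed in size and sign with the RNAs compared. With MALAT1, NEAT1 and KCNQ1OT1 set against NORAD and H19, the difference of mean enrichments was 1.10 for CBFB, and 1.28 and 2.64 for the hnRNPK repeats, a mean of 1.96 ± 0.96 (SD, n = 2). KCNQ1OT1 adds to this only what centring gives to a gene near 0 FPKM. Without it, the difference was 0.64 for CBFB and 0.37 and 2.30 for the repeats, a mean of 1.34 ± 1.37, and the SD exceeded the mean. MALAT1 and NEAT1 against NORAD alone gave -0.03 in repeat 1 and 2.33 in repeat 2. NEAT1 minus NORAD was -1.92 in repeat 1 and 0.80 in repeat 2, a mean of -0.56 ± 1.93, and -0.58 in repeat 1 on the count scale. On the count scale, with all 5 RNAs, it was 0.41 for CBFB and 0.54 and 3.35 for the repeats. The compartments overlapped in repeat 1, where NEAT1, at -2.05, was the lowest of the 5 analysed RNAs and MALAT1, at 1.74, the highest. The inputs differed by -0.33 for the same contrast.

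The deposited mean transcript length, weighted by the abundance of each isoform, differed between the hnRNPK RIPs and the input for NEAT1 and MALAT1. NEAT1 averaged 4157 nt in the FLAG-CBFB cell input, 4828 in the CBFB RIP and 3305 in the parental input, against 9345 and 6811 in the hnRNPK repeats, 2.83 and 2.06 times the parental value. It was the only member more than 1.5 times longer in both repeats with at least 100 counts in every library, as were 310 of 7644 genes (4.06%). MALAT1 averaged 6812 nt in the FLAG-CBFB cell input, 6636 in the CBFB RIP and 8708 in the parental input, against 5882 and 5280 in the hnRNPK repeats, ratios of 0.675 and 0.606. In repeat 2 it was more than 1.5 times shorter, as were 68 of 7831 genes (0.868%).

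Taking the 22743 nt isoform as long NEAT1, and 3524 nt as the longest of the shorter ones, its share of NEAT1 molecules lay between 30.3% and 41.1% in hnRNPK repeat 1 and between 17.1% and 29.9% in repeat 2. In the parental input the share lay between 0 and 14.5%. With these lengths, the bounds of the parental input and of each hnRNPK repeat did not overlap. The parental mean of 3305 nt was, however, below 3441 nt, the shortest listed NEAT1 transcript in GENCODE 29. The tables therefore used another length for at least 1 NEAT1 isoform, so the NEAT1 bounds and their lack of overlap are not secure. For CBFB the bounds were 3.29% to 18.3% in the input and 6.78% to 21.2% in the RIP, which overlapped. Repeat 1, which held fewer NEAT1 counts, thus had the higher bounds. For MALAT1, the 8708 nt transcript took all of the parental input, 60.7% to 67.5% of repeat 1 and 52.3% to 60.6% of repeat 2. It took 73.6% to 78.2% of the FLAG-CBFB cell input and 71.2% to 76.2% of the CBFB RIP. The upper bound assumes shorter isoforms of no length, and the lengths are from GENCODE 29, which gave the tables' length for 651 of the 871 analysed genes with 1 listed transcript (74.7%). RSEM assigns reads between isoforms that share sequence, so a share is an estimate for that library.

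**Figure D4:**
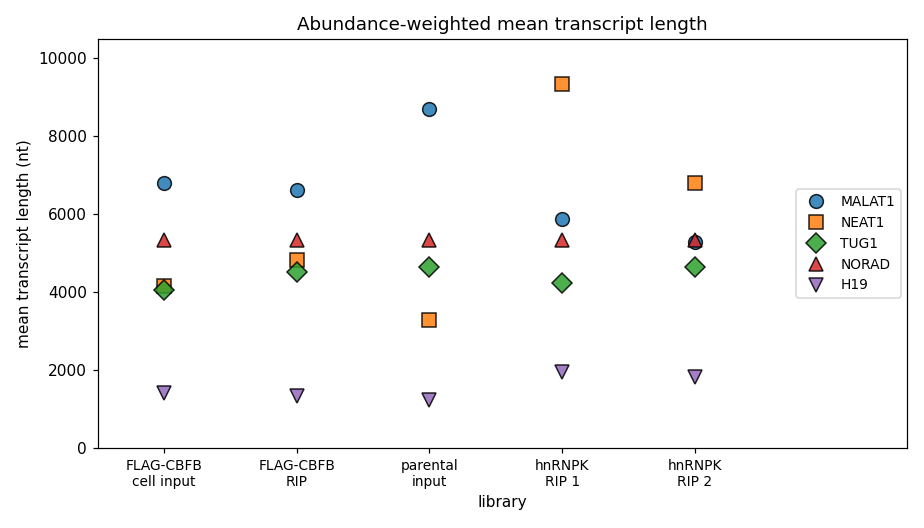
Abundance-weighted mean transcript length in nt of the 5 analysed long noncoding RNAs in each library, 1 point per RNA and library. NEAT1 rose from 3305 nt in the parental input to 9345 and 6811 nt in the hnRNPK RIPs, MALAT1 fell, and NORAD, with 1 listed transcript, stayed at 5339 nt.

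TUG1 lengths lay between 4051 and 4649 nt in all 5 libraries, and NORAD, with a single listed transcript, had 5339 nt throughout. H19 averaged 1430 and 1343 nt in the CBFB pair, and 1242 nt in the parental input against 1967 and 1833 nt in the hnRNPK repeats. Those H19 lengths rested on 86 and 108 counts.

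Long noncoding RNA genes as a class had higher medians than protein-coding genes in both RIPs. The median of 476 analysed long noncoding RNA genes was 0.51 for CBFB and 0.82 for hnRNPK, against -0.23 and -0.20 for 10549 protein-coding genes, and 12.6% and 19.1% of them were above 2, against 3.56% and 7.05%. Centring lifts genes of low FPKM on this scale. On the scale of non-mitochondrial counts, chosen after seeing the data, the class medians were 0.33 and 0.28, against -0.24 and -0.55. These are descriptions with no test. On the FPKM scale, TUG1, NORAD, H19 and NEAT1 lay below both class medians, and MALAT1 below that for CBFB. On the count scale NEAT1, at 0.36 for CBFB and 0.99 for hnRNPK, lay above both instead, and the others kept their places.

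Few other long noncoding RNAs assigned to a compartment reached a mean FPKM of 1. Of 9 nuclear ones, PVT1 and JPX were analysed, with hnRNPK enrichments of 0.69 and -0.37. The edgeR test, which also takes RNAs of lower FPKM, covered 7 identifiers of this list and called 3 higher and 1 lower (42.9% and 14.3%, against 21.9% and 15.8% of all genes). PVT1, FTX and HOTAIR were higher and JPX was lower, and FTX and HOTAIR are named after their values were seen. Of 6 cytoplasmic ones 4 were analysed, from TINCR at 2.20 to CYTOR at -2.12, and edgeR tested 5 and called TINCR and UCA1 higher and CYTOR lower (40.0% and 20.0%). UCA1, also named after its values were seen, had a log2 fold change of 4.78 (edgeR Benjamini-Hochberg adjusted p = 1.8e-08).

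The mRNAs of the proteins that work with these RNAs were mostly at or below the average gene. The 12 paraspeckle proteins had a median hnRNPK enrichment of -1.77, against -0.11 over all analysed genes, and edgeR called 2 of 12 higher and 6 of 12 lower, where 21.9% and 15.8% of all genes tested were. NONO, a core paraspeckle protein, was the highest at 1.70, and HNRNPK itself was the lowest at -2.59. Of 8 nuclear speckle proteins, with a median of -0.73, 3 rose and 1 fell (37.5% and 12.5%), from SRRM2, a scaffold of speckles, at 2.27 to PRPF6, a splicing factor, at -1.50. Of the NORAD partners, RBMX was at 0.75 and PUM2 at -0.84, and 1 of 3 rose (33.3%). Of 8 analysed neighbours of the members, 1 rose and 3 fell (12.5% and 37.5%), with LTBP3 at 0.34 the highest and MRPL23 at -2.10 the lowest. Of 7 epithelial markers, 2 rose and 1 fell (28.6% and 14.3%), with TP63 at 1.92 and EPCAM at -1.87 at the ends. These lists hold 3 to 12 genes, and nothing particular to them was tested. Median CBFB enrichments were -0.41 for paraspeckle proteins, -0.44 for speckle proteins and -1.01 for NORAD partners, and 0 of these 23 genes were above 2, where 4.37% of all analysed genes were.

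Patterns most like those of the members were sought among 9535 genes, by the distance between profiles of log2(FPKM + 1) over the 5 libraries after subtracting each profile's mean. For MALAT1, the second nearest was 7SK, the nuclear RNA that holds the elongation factor P-TEFb inactive, at a distance of 0.64, with 21.8, 5.61, 14.5, 3.95 and 16.1 FPKM in the order FLAG-CBFB cell input, FLAG-CBFB RIP, parental input, hnRNPK RIP repeat 1 and repeat 2. The nearest is not reported here. For NEAT1 it was TNKS1BP1, at 0.69, with 74.5, 17.6, 94.7, 5.08 and 21.5 FPKM in the same order, followed by a gene given only as ENSG00000237411. MALAT1 and NEAT1 had few such genes, with 11 and 6 within a distance of 1. TUG1 had 3876, H19 2955 and NORAD 800, the nearest being LIMS1 and PHF20L1 for TUG1, LIPE and CC2D1B for H19, and MXI1 and YES1 for NORAD. Their distances were 0.073 and 0.096 for TUG1, 0.098 and 0.098 for H19, and 0.33 for both of NORAD's.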

How the data were processed

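RIPseq and input libraries were compared per gene. Per the labels, RNA was isolated with Trizol, cleaned on columns and prepared with a TruSeq mRNA kit; rRNA removal is described for the study's RNAseq, and whether it applied here is not stated. The submitters' processing notes name Trimmomatic, STAR, RSEM and the build hg19, and their versions and the annotation release were not given in the sources used here. Expected counts, as deposited, were estimated per gene by RSEM, and the deposited FPKM values divide them by effective length and library size. The deposited lengths are abundance-weighted means in nt. The deposited TPM values were not used.

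Of 56632 identifiers, 50276 were named from tables of gene names and GENCODE 29. log2(FPKM + 1) of each RIP minus its input was centred over the analysed genes. The count scale was CPM of non-mitochondrial counts with a prior of 0.5. Counts rounded to whole numbers were tested with edgeR 4.0.16 (TMM, filterByExpr) and with DESeq2 1.42.0, and the scripts were tested on simulated data. Shares have 95% Wilson intervals. Other settings were a pseudocount of 0.1, other centring, scaling, filters, inputs and thresholds, and leaving out each repeat. The count scale, the long noncoding class on it and the difference without KCNQ1OT1 were chosen after seeing the data.

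Named were the 6 members, the highest and lowest gene of each list by hnRNPK enrichment, the 2 genes most like each analysed member with at least 50 counts in every library (of those for MALAT1, the nearest is not reported here), RUNX1 and GAPDH. The members and lists were chosen with earlier results of these data known. TALAM1, MIR675 and PECAM1 were not matched to the tables, and LINC-PINT matched 2 identifiers.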

Additional observations from a re-analysis of the deposited data

Results flagged for a closer look

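MALAT1 lay on opposite sides of the average gene in the RIPs of the 2 proteins on the main scale, which was not tested. Its CBFB enrichment was -0.09, and both hnRNPK repeats were above 0, so the CBFB value minus the hnRNPK mean was -2.55. The CBFB value rests on 1 library and was close to 0. It was 0.03 on the scale of non-mitochondrial counts, 0.10 with centring on the median and 0.89 against the parental input, but -1.43 without centring. Its own sign thus depends on the setting, while the hnRNPK mean was 2.71 on the scale of non-mitochondrial counts.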

How the results depend on the processing

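No paired analysis was possible because only the hnRNPK RIP had 2 repeats, against 1 input. The CBFB RIP called none of the 5 analysed RNAs under any setting. hnRNPK RIP called 1, MALAT1, and 0 without centring, with libraries scaled to the same arithmetic mean, over all genes (0.43) and against the other cell line's input (1.495), and 0 to 1 when leaving out a repeat. The MALAT1 mean reversed to -0.18 without centring and -0.97 with an equal arithmetic mean; without centring every gene shifted by -1.34 (CBFB), -2.61 and -2.68 (hnRNPK). Against the other input, the CBFB values of NORAD and MALAT1, neither of which was called for CBFB, turned to 0.37 and 0.89. Nuclear-retained minus cytoplasmic for CBFB was 0.78 with FPKM rescaled without mitochondrial genes, 1.35 with an equal arithmetic mean, 0.77 against the other input, 0.41 on CPM with TMM or DESeq2 factors and on non-mitochondrial counts, and 0.64 for MALAT1 and NEAT1 against NORAD and H19. For hnRNPK it was 1.28 to 2.64 when leaving out a repeat. Inputs differed by over 1 for 2 members with a pseudocount of 0.1, an equal arithmetic mean or a mean FPKM of at least 5. DESeq2 called 1 member in place of 3, and 1696 genes lower in place of 2623. The causes were not tested. NEAT1 was 1 member longer in both repeats under each setting. Leaving out a repeat left edgeR no residual degrees of freedom, so it gave no test. The single CBFB RIP and single inputs limit what these values can show.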
